A study of Mus musculus with 6 samples.

Results

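Alveolar type 1 cells were followed through 10 of their marker genes, Ager, Hopx, Pdpn, Aqp5, Rtkn2, Clic5, Akap5, Emp2, Cldn18 and Lmo7. The members were chosen by symbol as genes known to mark this cell type. Their values in these mice were not the rule, though earlier results of these data were known when they were chosen. Each member was found in exactly 1 row of a table of 20494 gene clusters. The table compares whole lung of untreated male C57BL/6 mice aged 4 months that lack lincRNA-Cox2, a long noncoding RNA encoded beside Ptgs2, with lung of wild type mice of the same strain, age and sex (3 libraries of total RNA per genotype). How the knockout allele was made is not given in the sources used here. The deposited table gives each gene's mean per genotype and the authors' comparison of the genotypes, so the spread among mice enters only through the authors' standard errors.

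The gas exchange surface of the lung is covered mainly by type 1 cells, which are thin, flat and very broad. They lie against the capillary endothelium across a shared basement membrane, seal the airspace with tight junctions, and take part in moving water and ions out of it. Cuboidal type 2 cells make surfactant and can divide and flatten into type 1 cells after injury. Some of the markers are also made elsewhere: podoplanin in lymphatic endothelium and mesothelium, Emp2, Cldn18 and Lmo7 in other epithelial or stromal cells. In bulk tissue, fewer cells of a type and less RNA per cell cannot be told apart.

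RNA of all 10 genes was found in both genotypes, and none of the 10 passed the test between them. Summed over the 10 genes, the mean level was 247274 normalized counts (counts divided by the authors' size factor for each library) in wild type and 245688 in knockout, 99.4% of wild type. This was 0.666% of all normalized counts in wild type and 0.667% in knockout. By the authors' adjusted p in their DESeq2 comparison, 0 of 10 members were called at 0.05, where 1.09% of the 16902 clusters with an adjusted p were called. At an unadjusted p under 0.05 there were again 0 of 10 members, against 7.09% of the 20477 clusters with a p-value. The lowest adjusted p of a member was 0.877 in the authors' deposited table and the lowest unadjusted p was 0.198, both for Clic5.

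The differences that were seen were small and went both ways. The knockout mean was above the wild type mean for 4 members (Clic5, Pdpn, Akap5 and Lmo7) and below it for 6 (Rtkn2, Emp2, Hopx, Cldn18, Ager and Aqp5). The log2 ratio of the means, knockout over wild type, had a median of -0.021 over the members and -0.0013 over all tested clusters. In absolute size it had a median of 0.026 over the members, 0.072 over all tested clusters, and 0.050 over the 1797 tested clusters with a mean of at least 5000 normalized counts, a range that holds all 10 members. Of those 1797 clusters 1.39% were called. Rtkn2, the member with the widest gap, had a larger absolute log2 ratio than 74.2% of them, while Lmo7 had a larger one than 7.23%.

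**Figure D1:**
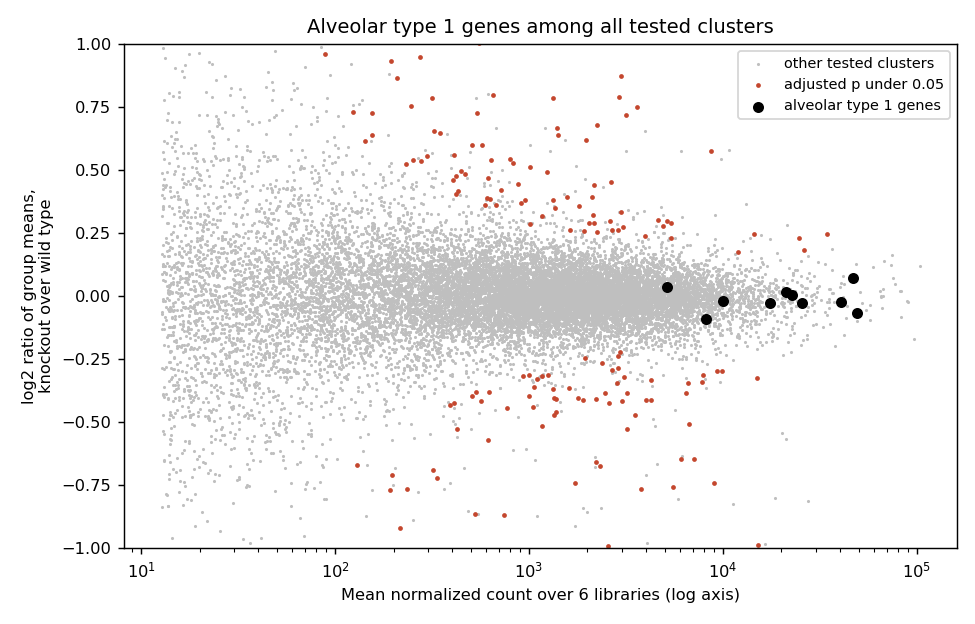
Vertical axis, log2 of the knockout mean divided by the wild type mean; horizontal axis, the mean normalized count over 6 libraries (log axis), for all clusters with an adjusted p; grey points are clusters not called, red points have an adjusted p under 0.05, and black points are the 10 alveolar type 1 genes, all between -0.092 and 0.073. The vertical axis is limited to an absolute log2 ratio of 1, which leaves 85 clusters outside.

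A range for each difference, on the authors' shrunken scale, was read from the standard errors. The authors' log2 fold changes are shrunken towards 0, to between 0.814 and 0.903 of the log2 ratio of the means for these genes. Their standard errors lay between 0.050 and 0.066 in the authors' deposited table. The 95% intervals (normal approximation) all contained 0. The lowest and highest bounds, from different genes, were a log2 value of -0.20 (Rtkn2) and 0.16 (Clic5) on the shrunken scale, which are knockout levels of 0.868 and 1.12 times wild type. A p above the threshold does not show that the genotypes were alike. Each gene's interval is drawn towards 0 by the shrinkage, so somewhat wider differences between the means also remain compatible with the data.

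The labels of the genotypes were checked on the targeted transcript, whose mean was 311 normalized counts in wild type and 0.666 in knockout (adjusted p = 4.05e-91 in the authors' deposited table). Ptgs2 had means of 2929 and 298 there. Normalized counts summed to 3.71e+07 per wild type library and 3.68e+07 per knockout library on average. None of the members lies on chromosome 1, which carries lincRNA-Cox2; they are spread over 9 chromosomes, with Ager and Clic5 9.59 Mb apart on chromosome 17.

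Promoter sequence was available for 9 of the 10 members in the RefSeq table of build GRCm38.p6 (the same assembly as mm10), with 12 transcription starts in all; Rtkn2 had no entry. The stretches below are the 120 bases just before the start for the pair of members with the highest counts, whose nominal differences had opposite signs (Clic5 and Emp2), for the 1 member with both a GC box and a CCAAT box (Akap5), for the start with the lowest GC content (Pdpn), and for both starts of Cldn18, which the single Cldn18 row cannot separate. They are written 5′ to 3′ on the strand of the gene, and capitals mark matches to the motifs named after them.
Clic5, chr17:44188452-44188571, plus strand: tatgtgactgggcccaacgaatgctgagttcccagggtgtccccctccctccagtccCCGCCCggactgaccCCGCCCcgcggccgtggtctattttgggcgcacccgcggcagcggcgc
Emp2, chr16:10313969-10314088, minus strand: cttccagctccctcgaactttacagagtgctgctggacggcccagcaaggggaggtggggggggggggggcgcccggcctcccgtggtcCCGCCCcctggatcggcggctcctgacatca
Akap5, chr12:76324771-76324890, plus strand: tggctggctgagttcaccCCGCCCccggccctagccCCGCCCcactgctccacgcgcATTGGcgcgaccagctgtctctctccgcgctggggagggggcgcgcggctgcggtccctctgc
Pdpn, chr4:143299565-143299684, minus strand: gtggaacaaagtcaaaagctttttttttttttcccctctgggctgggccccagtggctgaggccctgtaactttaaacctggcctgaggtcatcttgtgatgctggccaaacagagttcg
Cldn18, first start, chr9:99717268-99717387, minus strand: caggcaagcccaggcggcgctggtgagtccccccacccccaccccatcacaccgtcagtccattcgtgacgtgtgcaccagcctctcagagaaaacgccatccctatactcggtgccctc
Cldn18, second start, chr9:99710064-99710183, minus strand: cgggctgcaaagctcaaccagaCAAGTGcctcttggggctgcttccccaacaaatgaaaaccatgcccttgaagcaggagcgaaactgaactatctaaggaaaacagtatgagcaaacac

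These promoters had little in common in base composition. Over the 250 bases before each start, GC content ran from 43.2% at Pdpn to 78.4% at Aqp5, with a median of 55.8% over the 12 starts and 52.4% over all 32851 starts of the table. The number of CpG dinucleotides ran from 2 at Pdpn to 38 at Aqp5, against a median of 6 over all starts. At Aqp5 and at the second start of Hopx, all of the 120 bases nearest the start lie within annotated exons, as do 84 of 120 at the second start of Lmo7 and 7 at its first. The highest GC and CpG values, at Aqp5, thus come partly from transcribed sequence. Exons of any gene on either strand were counted, and the 7 bases at the first Lmo7 start lie in the opposite-strand gene Gm9922. The GC box bound by Sp1 and Kruppel-like factors (GGGCGG) was found at 5 of the 12 starts (41.7%; Akap5, Aqp5, Clic5, Emp2 and 1 start of Lmo7) and at 32.7% of all starts. A CCAAT box (CCAAT) was found at 4 of 12 (33.3%; Ager, Akap5 and both starts of Hopx) and at 33.8% of all. The letters of the NKX2-1 site (CAAGTG) were found at 1 start, the second one of Cldn18 (8.33%, against 11.6% of all), and those of the TEAD site (GGAATG) and of the TATA box (TATAAA) at 0 of 12, against 12.6% and 12.4% of all. Both strands were searched, and no letters are shared between matches of different motifs in the stretches printed. A match is a description of the letters only.

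Several type 1 cell markers ranked high by read count, though the 10 together made up 0.666% of normalized counts in wild type. By mean normalized count over both genotypes, without length correction, 4 of the 10 ranked within the first 100 of the 20494 clusters (Emp2 at 26, Clic5 at 28, Ager at 37 and Cldn18 at 90) and 7 within the first 200. Pdpn had the lowest count of the members and ranked 1736. Emp2, Clic5 and Ager together made up 55.4% of the summed wild type level of the 10. Counts rise with transcript length, so these ranks describe reads and not levels. The order of levels between genes was read per kilobase of annotated exon (GENCODE M21, all exons of the gene merged). On that scale Ager was the highest in wild type at 19102 normalized counts per kb, 18th of the 16052 protein-coding genes that could be placed, followed by Hopx at 11609. Emp2 (5809), Cldn18 (5771) and Clic5 (5212) formed a group within which the order changed: in knockout it was Cldn18 (5668), Emp2 (5540) and Clic5 (5481). Aqp5 (3856), Akap5 (3065), Pdpn (2781), Lmo7 (1894) and Rtkn2 (1524) followed in wild type, and kept this order in knockout. The highest and lowest member differed 12.5-fold per kb. The table holds no spread for a gene's level, so neighbours in this order cannot be said to differ; with the longest transcript as the length, Clic5 came before Cldn18, and Lmo7 (3715) before Akap5 (3127) and Pdpn (2781).

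**Figure D2:**
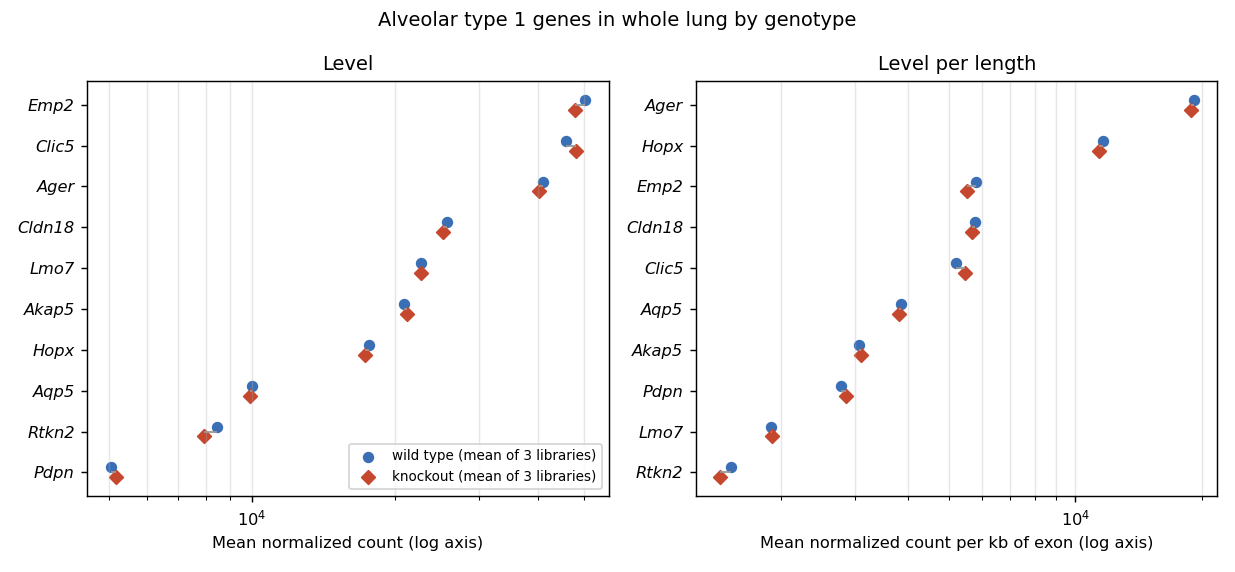
Authors' mean normalized count of the 10 alveolar type 1 genes in wild type (blue circles) and knockout (red diamonds), each the mean of 3 libraries, without length correction (left) and per kb of merged exon (right), on log axes. Each pair of symbols nearly coincides, from Emp2 at 50215 and 47891 down to Pdpn at 5053 and 5175 on the left, and Ager leads on the right at 19102 and 18796.

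Surface receptors and glycoproteins come first. Ager encodes RAGE, an immunoglobulin-family receptor for S100 proteins, HMGB1 and glycated proteins that is unusually abundant on type 1 cells. It lies on the plus strand of chromosome 17 (34597862 to 34600936, mm10) within the major histocompatibility region. Its means were 40897 normalized counts in wild type and 40243 in knockout, a knockout level of 98.4%. Its shrunken log2 fold change came to -0.020 ± 0.056 (SE), with an interval from -0.13 to 0.089 and an adjusted p of 0.997 in the authors' deposited table. Ager sits 462 bp after Pbx2 and 155 bp from Rnf5, which is on the opposite strand. Pbx2 had means of 2656 and 2606 and Rnf5 990 and 1077 (adjusted p = 0.997 and 0.871 in the authors' deposited table).

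Ligands and partners of RAGE were read beside it. Of the 10 partner genes found and tested, 2 were called, against 1.09% of all tested clusters. Higher in knockout were S100a9 (2144 and 3703 normalized counts, shrunken log2 fold change 0.55 ± 0.078 (SE), adjusted p = 2.12e-09 in the authors' deposited table) together with S100a8 (1083 and 1718, adjusted p = 2.80e-05). Both are made mostly by neutrophils, and Itgam, an integrin of myeloid cells in the same list, had an unadjusted p of 0.0403 (1906 and 2137). Hmgb1, a nuclear protein released from damaged cells, had means of 6635 and 6825 (adjusted p = 0.980 in the authors' deposited table). The receptor gene thus had nearly equal means in the genotypes while a pair of its ligand genes was higher in knockout; the difference between receptor and ligands was not tested.

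Pdpn encodes podoplanin, a mucin-like glycoprotein of the type 1 cell's apical surface that binds the platelet receptor CLEC-2 outside the cell and ezrin-family proteins inside it. It lies on the minus strand of chromosome 4 (143267431 to 143299564). Its means were 5053 in wild type and 5175 in knockout, 102% of wild type (shrunken log2 fold change 0.028 ± 0.064 (SE), interval -0.098 to 0.15, adjusted p = 0.997 in the authors' deposited table). Podoplanin is also a protein of mesothelium, and 1 of the 2 tested mesothelial markers was called, against 1.09% of all tested clusters. Of the 6 mesothelial genes of the list, 5 had a higher mean in knockout, and their summed level was 1188 in wild type and 3072 in knockout. Most of that gap came from Upk3b (146 and 1404) and Lrrn4 (71.9 and 608), which had no p-value and shrunken log2 fold changes of only 0.069 and 0.062 in the authors' deposited table, against log2 ratios of 3.26 and 3.08. Wt1 (8.95 and 65.8) also had no p-value there. Upk3b, Lrrn4 and Wt1 each kept a Wald statistic (a score) of 2.43, 2.27 and 3.91 in the authors' comparison. Of all 20494 clusters, 17 had no p-value. Group means alone cannot show whether single libraries carried these gaps, which was not tested. Muc16 was called higher (21.1 and 68.8, adjusted p = 0.0209 in the authors' deposited table), Krt14 (1.01 and 8.25) had no adjusted p, and Upk1b was at 939 and 916. The part of mesothelial RNA in the Pdpn value was not tested. Of the endothelial list, the lymphatic gene Prox1 (140 and 134) and Lyve1 (12741 and 11347), at a far higher level, were not called (adjusted p = 0.997 and 0.796 in the authors' deposited table).

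Among podoplanin's partners 0 of 9 genes were called by the authors' DESeq2 comparison, and 0 had an unadjusted p under 0.05. Clec1b, the gene of CLEC-2, had means of 442 and 487. Of the genes for the proteins that tie podoplanin to actin, Msn was at 42892 and 42080, Rdx at 13734 and 13954, and Ezr at 12462 and 13380, the last with the smallest unadjusted p of the list (0.0629 in the authors' deposited table). Rhoc (3586 and 3334) and Cd9 (13759 and 14425) came next with 0.0958 and 0.273.

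Membrane proteins of water, chloride and tetraspan families follow. Aqp5 is the water channel of the apical type 1 cell membrane, on chromosome 15 (99590782 to 99594829, plus strand). Its means were 10022 in wild type and 9897 in knockout, 98.7% of wild type. Its shrunken log2 fold change came to -0.016 ± 0.054 (SE), with an interval from -0.12 to 0.091 in the authors' deposited table (adjusted p = 0.997). Of 13 genes of alveolar water and ion transport beside it, 0 were called, against 1.09% of all tested clusters. The authors' DESeq2 comparison gave an unadjusted p under 0.05 to 7.09% of all clusters with a p-value, and to 3 of the 13. Among them were Cftr, the chloride channel (518 and 649), and Aqp3, a water and glycerol channel of airway epithelium (115 and 65.7), with adjusted p-values of 0.260 and 0.334 in the authors' deposited table. The other aquaporins, Aqp1 of capillary endothelium (29421 and 29605) and Aqp4 (775 and 704), were not called. The epithelial sodium channel subunits, through which alveolar fluid is absorbed, were at 15412 and 14270 for Scnn1a, 5374 and 5714 for Scnn1b, and 6046 and 6147 for Scnn1g.

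Emp2 encodes epithelial membrane protein 2, a membrane-spanning protein of the Pmp22 family, and lies on chromosome 16 (10281749 to 10313968, minus strand). Its means were 50215 normalized counts in wild type and 47891 in knockout, 95.4% of wild type. Its shrunken log2 fold change of -0.062 ± 0.050 (SE) had the smallest standard error of the members and an interval from -0.16 to 0.037 in the authors' deposited table (adjusted p = 0.890). Its relatives were not called either: Emp1 had means of 10118 and 10158, Pmp22 15250 and 15202, and Emp3 1428 and 1529 (adjusted p = 0.998, 0.999 and 0.857 in the authors' deposited table).

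Clic5 belongs to the chloride intracellular channel family and is tied to the cortical actin of cell protrusions through ezrin. On chromosome 17 (44188584 to 44280172, plus strand), it had means of 45772 in wild type and 48132 in knockout, 105% of wild type. Its shrunken log2 fold change came to 0.065 ± 0.051 (SE), with an interval from -0.034 to 0.16 and an adjusted p of 0.877 in the authors' deposited table. In the same family Clic4, known from endothelium, was at 32039 and 31652, Clic1 at 6935 and 6901, Clic3 at 4864 and 5105, and Clic6 at 3178 and 3114, with 0 of 5 genes called by the authors' DESeq2 comparison and 0 at an unadjusted p under 0.05.

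Junction proteins were next. Cldn18 encodes claudin-18, a tight junction protein of alveolar epithelium and stomach, on chromosome 9 (99689461 to 99717267, minus strand). It had means of 25715 and 25255, 98.2% of wild type in knockout (shrunken log2 fold change -0.022 ± 0.064 (SE), interval -0.15 to 0.10, adjusted p = 0.997 in the authors' deposited table). The gene overlaps the antisense transcript Gm16004, which was not in the table by that name; the kit named in the labels does not mark strand, so their reads cannot be told apart. Hopx and Rtkn2 likewise overlap the antisense transcripts Hopxos and Gm16212. Lmo7 encodes a protein with LIM and PDZ domains that links the adherens junction to actin and also binds the nuclear protein emerin. It spans chromosome 14 from 101729957 to 101934710 on the plus strand, the widest locus of the members. Its means of 22634 and 22730 were the closest pair of all, 100.4% of wild type in knockout (shrunken log2 fold change 0.0050 ± 0.065 (SE), interval -0.12 to 0.13, adjusted p = 0.999 in the authors' deposited table).

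Among 19 tested genes of claudins and junction partners, 0 were called, against 1.09% of all tested clusters. Cldn15, also in the list, had no p-value (83.7 and 330, log2 ratio 1.98, shrunken log2 fold change 0.092). The authors' DESeq2 comparison gave an unadjusted p below 0.05 to 7.09% of all clusters with a p-value, and to 3 of the 19. Cldn5, the endothelial claudin, was at 14192 and 12369 (adjusted p = 0.314, authors' deposited table). Emd, which encodes emerin, was at 2697 and 2417 (adjusted p = 0.325, authors' deposited table), and Cldn1 at 528 and 624 (adjusted p = 0.489). The tight junction gene Tjp1 had nearly equal means of 20115 and 20032, as did the claudin gene Cldn3 with 4675 and 4591.

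Signalling adaptors made up the next pair. Akap5 encodes an anchoring protein that holds protein kinase A, protein kinase C and calcineurin near adenylyl cyclase at the membrane. It lies on chromosome 12 (76324891 to 76334153, plus strand) and had means of 20913 in wild type and 21157 in knockout, 101% of wild type (shrunken log2 fold change 0.014 ± 0.065 (SE), interval -0.11 to 0.14, adjusted p = 0.997 in the authors' deposited table). Among 18 genes of its pathway 0 were called and 0 had an unadjusted p under 0.05 by the authors' DESeq2 comparison. The lowest unadjusted p-values were those of Akap12 (9899 and 9163, p = 0.0972), Adcy6 (4158 and 3885, p = 0.133) and Adcy4 (4692 and 4412, p = 0.240) in the authors' deposited table.

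Rtkn2 encodes rhotekin-2, a signalling adaptor of the rhotekin family, on chromosome 10 (67979570 to 68059740, plus strand). It showed the largest difference of the members, with means of 8453 in wild type and 7930 in knockout, 93.8% of wild type. Its shrunken log2 fold change came to -0.075 ± 0.066 (SE), with an interval from -0.20 to 0.054 and an adjusted p of 0.914 in the authors' deposited table. Its relative Rtkn was at 1534 and 1462. Of the 7 genes in the list of rhotekins and related effectors, Rtkn2 included, 0 were called and 1 had an unadjusted p under 0.05, Rock1, a kinase that drives actomyosin contraction (5965 and 6522, p = 0.0367, adjusted p = 0.532 in the authors' deposited table). Rock2 was at 9035 and 9567, Rhpn2 at 863 and 986, and Cit at 335 and 300.3.

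Hopx is the nuclear member, a small homeodomain protein that does not itself bind DNA and marks type 1 cells and some of their precursors. It lies on chromosome 5 (77086988 to 77115121, minus strand). Its means were 17599 and 17279, 98.2% of wild type in knockout (shrunken log2 fold change -0.023 ± 0.061 (SE), interval -0.14 to 0.096, adjusted p = 0.997 in the authors' deposited table). Genes that direct alveolar cell fate were not called either, with 0 of 19 passing and 1 at an unadjusted p under 0.05 by the authors' DESeq2 comparison. Over all clusters with a p-value, 7.09% had an unadjusted p under 0.05. Nkx2-1, the master regulator of lung epithelium, was at 5524 and 5647. Yap1 and Wwtr1, the effectors of stretch sensing in the Hippo pathway, were at 6272 and 6170 and at 8418 and 8263, and their DNA-binding partner Tead1 at 8832 and 8507. Fgfr2, a growth factor receptor that maintains type 2 cells, had the smallest unadjusted p (9230 and 10532, p = 0.00791, adjusted p = 0.253 in the authors' deposited table), followed by Cebpa (4687 and 5092, p = 0.0510) and Klf5 (850 and 954, p = 0.134).

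A wider list of 30 further genes known from type 1 cells was read in the same way. By the authors' DESeq2 comparison 0 of its 29 tested members were called, against 1.09% of all tested clusters. An unadjusted p under 0.05 was found for 4 of the 29, for 0 of the 10 members, and for 7.09% of all clusters with a p-value. The median log2 ratio of the 29 tested genes was -0.010. The summed level of all 30 genes was 333877 in wild type and 333844 in knockout. That sum includes Msln, which was not tested (278 and 1515), and the closeness of the sums depends on it. Those 4 were Limch1, an actomyosin regulator (29589 and 32453, p = 0.00922, adjusted p = 0.276), Agrn, the basement membrane proteoglycan agrin (12512 and 11266, p = 0.0210, adjusted p = 0.417), Spock2, a matrix proteoglycan (14551 and 13053, p = 0.0313, adjusted p = 0.497), and Cytl1 (1007 and 884, p = 0.0463, adjusted p = 0.575), all from the authors' deposited table. Cav1, the caveolin of type 1 and endothelial cells, was at 40006 and 41412, Igfbp2 at 7322 and 7538, and Vegfa, through which type 1 cells signal to capillaries, at 27310 and 25952. Msln, a gene of this list that mesothelium also makes, was at 278 and 1515, with the p-value left blank in the authors' deposited table. The log2 ratio of Msln was 2.44, its shrunken log2 fold change only 0.087, and its Wald statistic 2.53. Group means alone cannot show whether a single library carried that gap, which was not tested.

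**Figure D3:**
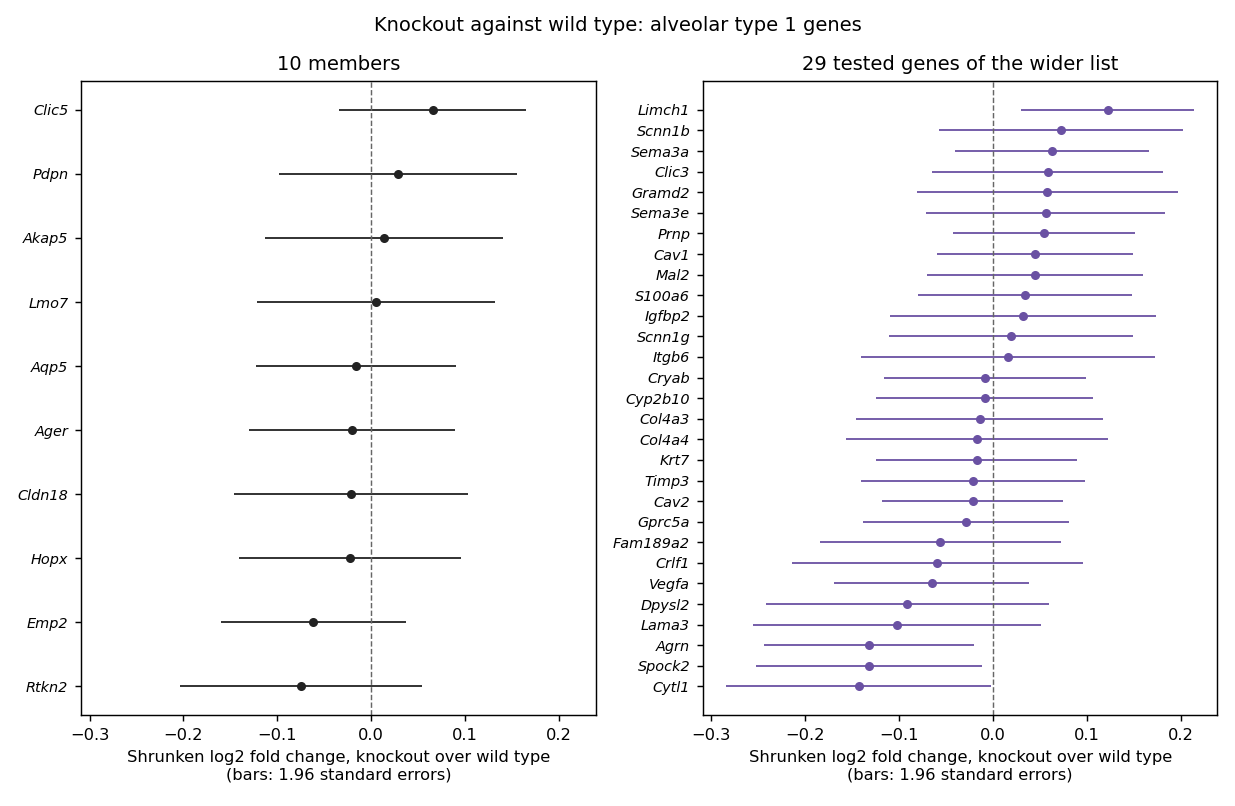
Points are shrunken log2 fold changes (knockout relative to wild type, authors' deposited table) for the 10 members (left) and the 29 tested genes of the wider type 1 cell list (right), ordered by size, with 95% intervals as bars. All 10 bars on the left cross 0, and on the right those of Limch1, Agrn, Spock2 and Cytl1 do not, before any adjustment for the number of genes tested.

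Other cell types of the lung were read on the same scale to place the type 1 genes. Over 18 tested type 2 cell genes the median log2 ratio was 0.079, with 15 higher and 3 lower in knockout, 7 at an unadjusted p under 0.05, and a summed level of 489855 and 495892. Of all clusters with a p-value, 7.09% had an unadjusted p under 0.05. Chil1, a chitinase-like protein on the chromosome of the targeted locus, was the 1 type 2 gene called, lower in knockout (19892 and 6858, adjusted p = 1.18e-09 in the authors' deposited table). Among the surfactant protein genes, Sftpc (82187 and 83359) and Sftpb (64204 and 65075) had log2 ratios of 0.020 and 0.019, while those of Sftpa1 (69990 and 76289) and Sftpd (24455 and 25838) were 0.12 and 0.079, none of the 4 called. Cxcl15 (34009 and 38693) and Lpcat1 (8100 and 9080) had unadjusted p-values of 0.0141 and 0.0189 in the authors' deposited table, and Abca3, the lipid transporter of surfactant storage, lay the other way (28712 and 25539, p = 0.0314). Whether type 1 and type 2 genes differ in their response was not tested. In the transitional state between the types, 1 of 13 genes was called, against 1.09% of all tested clusters. It was Ctgf, a target of Yap1 that other cells also make (8692 and 7002, adjusted p = 0.00179 in the authors' deposited table). Plaur (2163 and 1832, adjusted p = 0.105, authors' deposited table) and Sfn (654 and 619, adjusted p = 0.971) came next there, and the keratin gene Krt8, which marks that state, was at 8183 and 8404.

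General epithelial genes, which type 1 cells share with other epithelia, had 0 of 13 called, 0 at an unadjusted p under 0.05 and a median of 0.034, with Cdh1 at 15938 and 16927, Epcam at 3091 and 3164, Esrp2 at 1293 and 1437 and St14 at 2519 and 2710. The airway secretory list (0 of 9 called, 1 at an unadjusted p under 0.05, median -0.14) held wide gaps that were not called, such as Bpifa1 (16934 and 7402, adjusted p = 0.739, authors' deposited table). The log2 ratio of Bpifa1 was -1.19, but its shrunken log2 fold change only -0.064 ± 0.039 (SE). In the same list Scgb1a1 (50719 and 51324), Aldh1a1 (40497 and 42777) and Scgb3a2 (18481 and 16756) differed less. Of 7 ciliated cell genes 0 were called and 0 had an unadjusted p under 0.05 (median 0.053), with Foxj1 at 5059 and 4636, Ccdc153 at 3501 and 3758 and Dynlrb2 at 1145 and 1248. Endothelial genes had 0 of 14 called, 2 at an unadjusted p under 0.05 (Cldn5 and Plvap, 16049 and 13882) and a median of -0.056, with 13 lower in knockout. Vwf was at 27382 and 24244 and Pecam1 at 30370 and 30323. For comparison with these lists, 7.09% of all clusters with a p-value had an unadjusted p under 0.05.

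**Figure D4:**
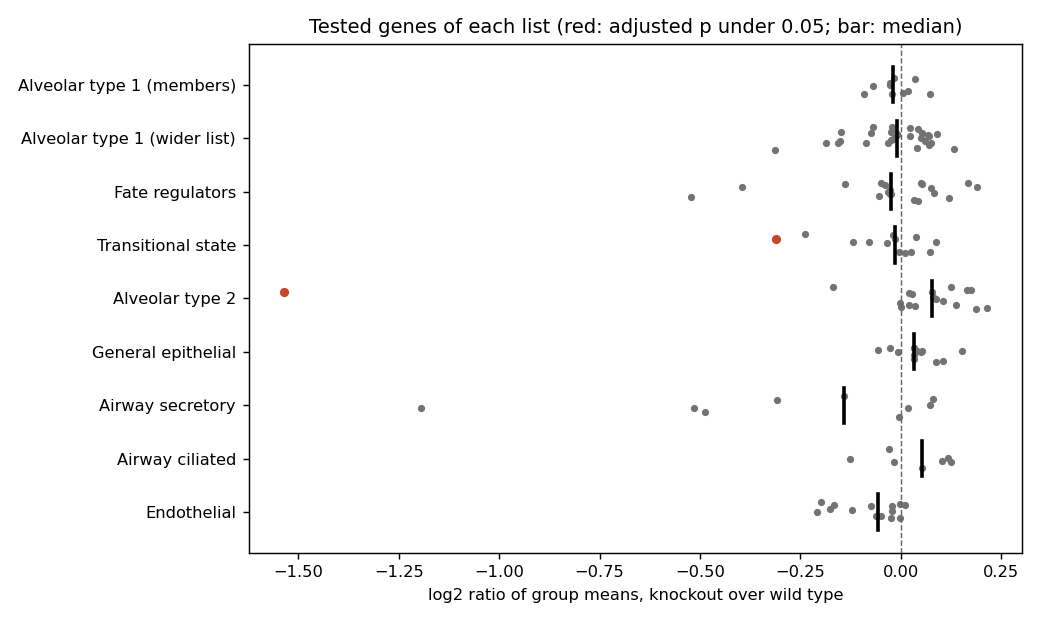
Knockout mean divided by wild type mean, on a log2 axis, for each tested gene of 9 lists; red points have an adjusted p under 0.05 and black bars are medians. The 10 members lie between -0.092 and 0.073 around a median of -0.021, and the called genes are Ctgf in the transitional state and Chil1 among type 2 genes.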

How the data were processed

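Whole lung RNA of 3 wild type and 3 lincRNA-Cox2 knockout mice was sequenced with the TruSeq RNA kit v2 as 50 bp paired ends, per the labels' protocols. The submitters' processing notes list mm10, DESeq2, STAR 2.5.1b, Bowtie2, bedtools and SAMtools, without roles; the counting rule is not given in the sources used here. In the 1 deposited table, group means are a signal in normalized counts (each library's counts over its size factor), per the file headers. The authors also deposited a shrunken log2 fold change with its standard error, a Wald statistic (a score), and p-values before and after adjustment. Column sums were 3.71e+07 and 3.68e+07; depth of single libraries was not used here.

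From these, ratios of means, 95% intervals (normal approximation), counts of called genes (adjusted p under 0.05) and list medians were computed with Python 3.11.15, pandas 2.3.3 and numpy 2.4.6. No model was refitted, since the table holds no library values; the branches of the plan that need them, and likeness of pattern over libraries, did not apply. The Benjamini-Hochberg step was tested on simulated data and differed from the authors' adjusted p by at most 6.3e-08. Genes were placed with GENCODE M21 by symbol. Named genes are the 10 members, and in each list the called genes, the 3 with the smallest p where fewer are called, and preset defining genes. Neighbours were added after their values were seen, as were Cytl1, Msln, Lrrn4, Wt1, Sftpa1, Sftpd, Abca3, Prox1, Lyve1, Tead1, Tjp1, Cldn3, Cldn15, Msn, Rdx, Scnn1b and Scnn1g. Of 229 list entries, 225 were in the table; where a symbol had several rows, that of highest mean was taken. Values of 3 listed genes are not reported here. The members and lists were chosen with earlier results of these data known. Replicates are taken as separate mice, as each library has its own title; the labels do not state it further.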

Additional observations from a re-analysis of the deposited data

How the results depend on the processing

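The count of called type 1 members was 0 under each of 4 alternatives: an adjusted p threshold of 0.1, adjustment over all clusters with a p-value, adjustment over clusters with a mean of at least 50, and every row of a symbol. No other outcome was possible, since an adjusted p cannot fall below the unadjusted p, at lowest 0.198 in the authors' DESeq2 comparison. Each member also stood in a single row, so the last alternative repeated the main count. The median log2 ratio of the members stayed between -0.021 and -0.0098 over 5 alternatives (shrunken values, 2 rescalings, a pseudocount of 1, and leaving out Cldn18, Emp2 and Lmo7). The summed level had a log2 ratio of -0.0093, of 0.0016 with the group means scaled to the same sum, of -0.0065 without Ager and of 0.0054 without Emp2, so its sign rests on the scaling and on Emp2. Shrinkage or rescaling changed the sign of 0 of the 10 single differences. In the order of levels per kb, 5 of the 10 places changed with the longest transcript as the length and 2 with knockout in place of wild type; both were chosen after the data were seen. Leaving out each library in turn, a fit to libraries and a replicate block were not run, since the table gives group means only. No paired analysis was possible because the labels carry no replicate number shared between genotypes and the columns hold means only. The number of libraries, 3 per genotype, limits the precision of every member's value.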
